A study of Mus musculus with 12 samples.

Results

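The levels of 9 genes of nucleic acid sensing were followed across sorted islet cells of female mice of the NOD strain, which becomes diabetic through autoimmunity: Ddx58, Ifih1, Dhx58, Mavs, Tlr3, Eif2ak2, Adar, Zbp1 and Tmem173. They were chosen as the rows of the gene table whose Ensembl identifiers carry these symbols, and all 9 of the 9 were found among 52962 genes in the table. The series held 12 RNA sequencing samples in 4 groups of 3: β-cells or non-β-cells, each taken at an age of 4 or 8 weeks, all of the NOD genotype with no treatment named in the labels. β-cells and non-β-cells were separated by autofluorescence, and by the study's account leukocytes positive for CD45 were depleted in the sort, islets were cultured overnight and dispersed with trypsin first, and a sample was a pool of 3 mice. The labels do not give the pools, so the p-values here measure the spread between samples. A fraction is a mixture of cells, and fewer cells of a type cannot be told apart from less RNA per cell.

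These genes encode the proteins by which a cell recognises viral or misplaced self nucleic acid. RIG-I (Ddx58) and MDA5 (Ifih1) bind duplex RNA in the cytosol and signal through the mitochondrial adaptor MAVS, while LGP2 (Dhx58) binds the same kind of RNA without a signalling domain and modulates the other receptors; TLR3 detects duplex RNA in endosomes. PKR (Eif2ak2) halts translation when it binds duplex RNA, ADAR1 (Adar) edits adenosine to inosine in such duplexes, ZBP1 recognises left-handed nucleic acid and can start necroptosis, and STING (Tmem173) is the adaptor that responds to cyclic dinucleotides made by cGAS on cytosolic DNA. Many of them are themselves induced by interferon, and in islets they are of interest because insulitis exposes β-cells to interferons and other cytokines.

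The samples held 13755106 to 27040652 estimated counts each. Levels are CPM, in which each count is divided by the library total after TMM scaling so that depths are comparable, differences are log2 differences from limma-voom with standard errors (SE), and p-values were adjusted over the 15598 genes tested and called under 0.05. The sort was visible in the markers: 7 β-cell markers summed to 46300 to 112000 CPM in β-cells and 2850 to 5810 CPM in non-β-cells, and 5 α-cell markers to 106000 to 136000 CPM in non-β-cells and 1520 to 9400 CPM in β-cells. In both fractions the 4-week sample numbered 3 stood apart from its group, with a chi-square over genes, per degree of freedom, of 89.7 and 97.8 against the other β-cell samples, which gave 27.1 between themselves, and of 41.5 and 49.9 against the other non-β-cell samples, which gave 12.5. Among the non-β-cells at 8 weeks sample 1 stood apart as well, with 26 and 37 against the others, which gave 9.97. Values without both 4-week samples numbered 3, and without this 8-week sample, are therefore given where they change a call.

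RefSeq promoter sequences on build GRCm38.p6, of 250 bases before and 50 bases after a start site, were used. They covered 6 of the 9 genes: Ddx58, Ifih1, Mavs, Tlr3, Eif2ak2 and Adar, the last with 3 starts. They were searched on both strands for the core of the interferon-stimulated response element, the motif through which type I interferon signalling acts on its target genes, written as GAAA, any 2 bases, GAAA. A match lay in the promoters of Ddx58, Ifih1 and Eif2ak2, and 3.99% of all 27025 genes in the table had one. After the sequences had been read, GAAA with 1 base between was searched as well; it lay in the promoters of Ddx58 and of the Adar start farthest downstream, and in those of 3.70% of all genes. Neither form was in the windows of Mavs, Tlr3 or the other starts of Adar. The runs of 30 bases that hold the matches are shown, 5′ to 3′ on the strand of the gene with the match in capitals, because these 4 genes are among those whose levels differed between ages in β-cells.
Ddx58, 2 bases between, on the opposite strand, chr4:40239804-40239833, minus strand: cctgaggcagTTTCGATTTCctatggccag
Ddx58, 1 base between, chr4:40239867-40239896, minus strand: gtctaggttcaGAAACGAAActggatcccc
Ifih1, 2 bases between, chr2:62646206-62646235, minus strand: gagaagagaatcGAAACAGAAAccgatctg
Eif2ak2, 2 bases between, chr17:78882535-78882564, minus strand: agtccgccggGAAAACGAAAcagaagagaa
Adar, downstream start, 1 base between, chr3:89730735-89730764, plus strand: gccttttcaagGAAACGAAAgtgaactctg
The upstream match of Ddx58 ended 52 bases before the start, and the other matches lay after it, at 3 to 12 bases for Ddx58, 33 to 42 for Ifih1, 19 to 28 for Eif2ak2 and 29 to 37 for Adar. A match describes the letters only, and binding was not measured in these data.

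In β-cells, 7 of the 9 sensor genes were higher at 8 than at 4 weeks and none was lower, while 8.59% of all tested genes were called higher in the same comparison. The 7 were Ddx58, Ifih1, Dhx58, Tlr3, Eif2ak2, Adar and Zbp1. In each of them every 8-week sample lay above every 4-week sample, as also in Tmem173, which was not called. The share of all tested genes separated in this way was not counted, so the separation is a description only. The differences ran from 0.55 for Adar to 5.38 for Zbp1 on the log2 scale. Mavs and Tmem173 did not pass the threshold. The median difference over the 9 genes was 1.08, against 0.02 over all tested genes. Zbp1 passed the filter on low values only through the 8-week samples and Tmem173 through 4 non-β-cell samples, so that for this pair a difference in level was needed to be tested at all.

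In non-β-cells, 4 sensors rose by 8 weeks, namely Ddx58, Dhx58, Zbp1 and Tmem173, and none fell, where 11.6% of all tested genes were called higher. Of these, Zbp1 was over the filter on low values in 0 and Tmem173 in 1 of the 4-week non-β-cell samples. Their being tested thus rested on the 8-week samples, and their calls are not independent of the filter. Ddx58 and Dhx58 were over the filter in all 12 samples. The median difference was 0.83, against 0.01 over all tested genes. Another 3 genes, Ifih1, Tlr3 and Eif2ak2, had intervals above 0 but adjusted p-values of 0.0931 to 0.119. The age comparisons share no samples with each other, and whether the change differed between the fractions was tested directly, as described after the single genes.

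**Figure D1:**
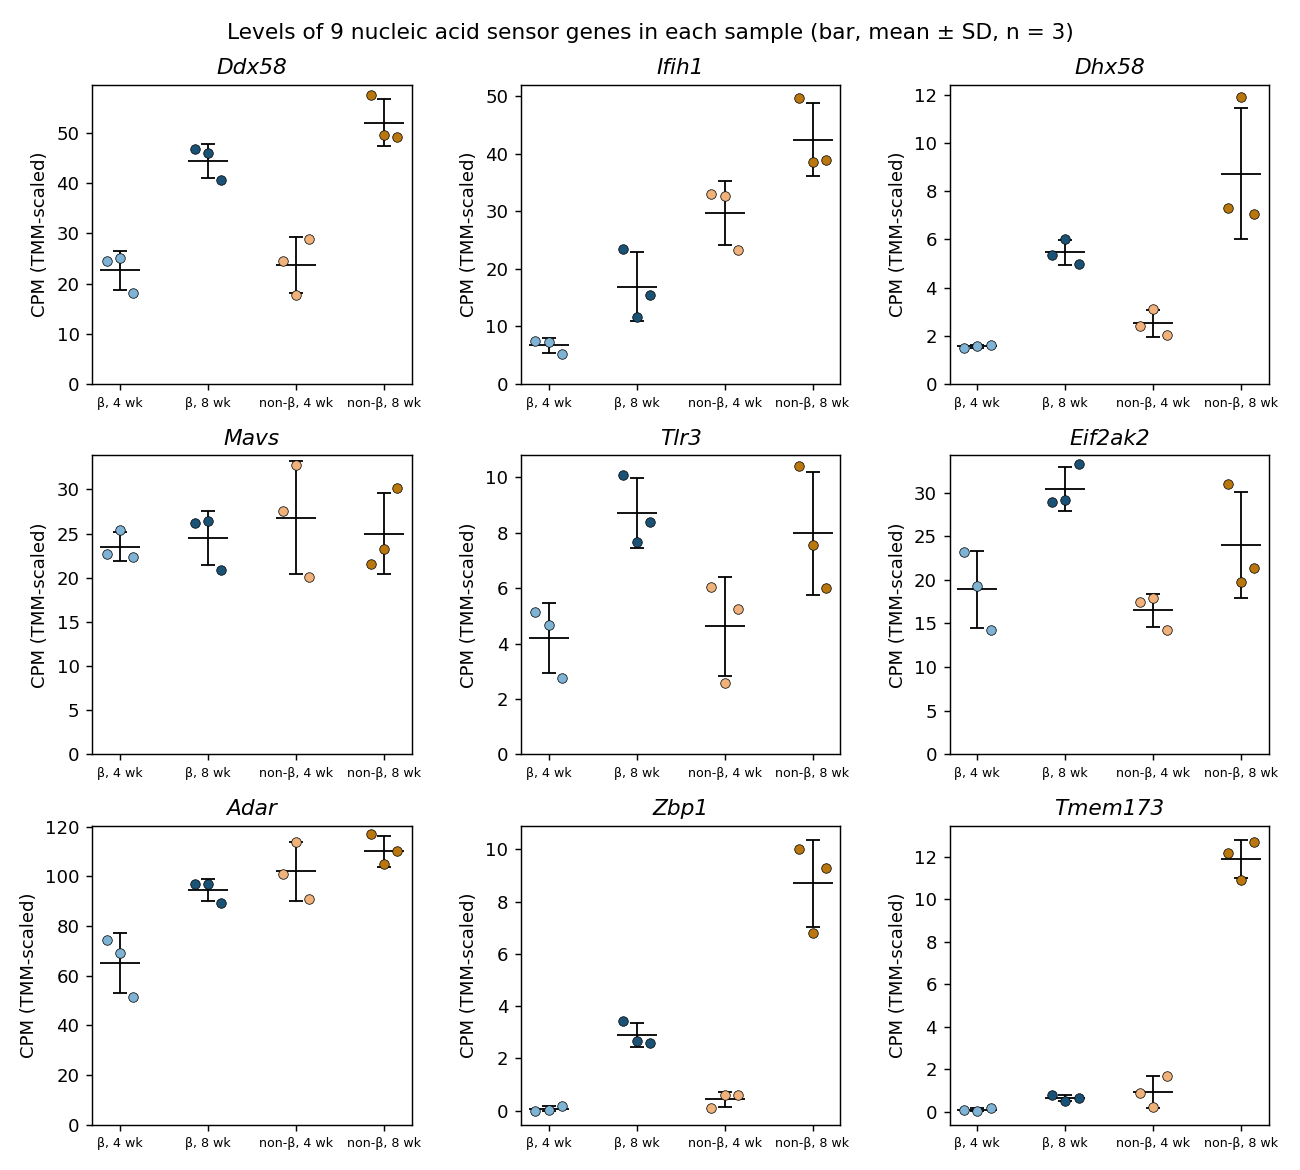
TMM-scaled CPM (vertical axis, starting at or just below 0) of each of the 9 genes in the 12 samples, in 4 groups along the horizontal axis, with points for samples and bars for the mean ± SD of 3. Every 8-week point lies above every 4-week point of the same fraction for Ddx58, Ifih1, Dhx58, Eif2ak2, Zbp1 and Tmem173, while the Mavs groups overlap throughout.

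Ddx58 (ENSMUSG00000040296, chr4:40203773-40239828, minus strand, GENCODE M21 on GRCm38) encodes RIG-I, the receptor for short duplex RNA with a triphosphate end. In β-cells it stood at 24.5, 25.1 and 18.1 CPM in the 4-week samples and at 46.8, 46.1 and 40.6 CPM in the 8-week samples, which did not overlap. In non-β-cells the levels were 24.5, 17.7 and 28.9 CPM at 4 weeks and 57.6, 49.6 and 49.2 CPM at 8 weeks. The rise was of a like size in the fractions, with a log2 difference of 0.99 (SE 0.17, adjusted p = 0.00173) in β-cells and 1.17 (SE 0.17, adjusted p = 0.000385) in non-β-cells. No difference between the fractions was called at either age, with β minus non-β at -0.06 (95% interval -0.45 to 0.34) at 4 weeks and -0.23 (-0.58 to 0.11) at 8 weeks. At 8 weeks every β-cell sample nonetheless lay below every non-β-cell sample, which is a description only.

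Ifih1 (ENSMUSG00000026896, chr2:62595798-62646255, minus strand) encodes MDA5, the receptor for long duplex RNA. At both ages its level was lower in the β-cell fraction. The β-cell samples held 7.48, 7.33 and 5.23 CPM at 4 weeks and 23.5, 11.7 and 15.5 CPM at 8 weeks. The non-β-cell samples held 33.0, 32.6 and 23.2 CPM at 4 weeks and 49.7, 38.5 and 38.9 CPM at 8 weeks. All β-cell samples of an age thus lay below all non-β-cell samples of that age, by -2.15 (SE 0.29, adjusted p = 6.43e-05) at 4 weeks and -1.41 (SE 0.22, adjusted p = 0.00019) at 8 weeks. With age the level in β-cells rose by 1.27 (SE 0.30, adjusted p = 0.0121). In non-β-cells the samples did not overlap between ages either, but the log2 difference of 0.53 (SE 0.21) missed the threshold (adjusted p = 0.106), which it passed with the replicate number as a block (0.53, adjusted p = 0.0375). The α-cell markers, all 5 of which were lower at 8 weeks in the β-cell fraction, went from 5620 to 9400 CPM at 4 weeks down to 1520 to 2570 CPM, and their part in the values of Ifih1 was not tested.

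Dhx58 (ENSMUSG00000017830, chr11:100694884-100704271, minus strand) encodes LGP2, and its level was low. β-cells had 1.48, 1.59 and 1.61 CPM at 4 weeks and 5.37, 6.03 and 4.97 CPM at 8 weeks, a tight separation. Non-β-cells had 2.41, 3.13 and 2.02 CPM at 4 weeks and 7.31, 11.9 and 7.04 CPM at 8 weeks. These are 104 against 400 counts in β-cells, a ratio of 3.51 after scaling (95% exact interval 2.82 to 4.40, counting error only), and 168 against 465 counts in non-β-cells, a ratio of 3.31 (2.77 to 3.97). The log2 difference was 1.79 (SE 0.35, adjusted p = 0.00359) in β-cells and 1.71 (SE 0.28, adjusted p = 0.000967) in non-β-cells. At 8 weeks Dhx58 was lower in β-cells by -0.58 (SE 0.22, adjusted p = 0.0407), a call lost without any of several libraries: the adjusted p rose to 0.0807, 0.0593 and 0.129 without the 8-week β-cell samples 1, 2 and 3, to 0.127 without 8-week non-β-cell sample 2, and to 0.0514 and 0.053 without the 4-week samples numbered 1 of β-cells and non-β-cells. The 8-week call between the fractions was also lost by edgeR (adjusted p = 0.0591), without a filter on low values (0.0778) and with only the groups compared (0.0543). An antisense gene, Dhx58os, shares exon bases with Dhx58 but did not exceed 0.206 CPM in any sample.

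Mavs (ENSMUSG00000037523, chr2:131234063-131248025, plus strand), the adaptor on which RIG-I and MDA5 converge, was the member whose groups overlapped in all 4 comparisons. The 4-week β-cell samples held 22.7, 25.4 and 22.3 CPM and the 8-week samples 26.2, 26.4 and 20.9 CPM. Its non-β-cell levels were 27.6, 32.8 and 20.1 CPM at 4 weeks and 21.5, 23.3 and 30.2 CPM at 8 weeks. The log2 age difference was 0.05 (95% interval -0.34 to 0.45) in β-cells and -0.09 (-0.50 to 0.31) in non-β-cells, so that a change of the size seen for Ddx58 lies outside both intervals.

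Tlr3 (ENSMUSG00000031639, chr8:45395665-45411080, minus strand), the endosomal receptor, had 5.14, 4.68 and 2.75 CPM in the 4-week β-cell samples and 10.1, 7.65 and 8.38 CPM in the 8-week samples. In non-β-cells it had 6.04, 2.59 and 5.23 CPM at 4 weeks and 10.4, 7.55 and 6.01 CPM at 8 weeks, where the lowest 8-week sample fell just under the highest 4-week sample. The rise in β-cells was 1.08 (SE 0.32, adjusted p = 0.0352), and in non-β-cells the difference was 0.83 (SE 0.34, adjusted p = 0.119). The β-cell call was not firm. Its adjusted p became 0.0616, 0.0733 and 0.115 without the 4-week β-cell samples 1, 2 and 3, 0.104, 0.0569 and 0.083 without the 8-week β-cell samples 1, 2 and 3, and 0.0505 without 8-week non-β-cell sample 2, and without both 4-week samples numbered 3 the difference was 0.81 (adjusted p = 0.0898). The overlapping antisense gene Gm45542 did not exceed 0.247 CPM.

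Eif2ak2 (ENSMUSG00000024079, chr17:78852564-78882573, minus strand), the gene of PKR, had 23.2, 19.3 and 14.3 CPM in the 4-week β-cell samples and 28.9, 29.2 and 33.3 CPM in the 8-week samples. In non-β-cells it had 17.4, 17.9 and 14.3 CPM at 4 weeks and 31.0, 19.8 and 21.3 CPM at 8 weeks, and in neither fraction did the ages overlap. The level in β-cells rose by 0.71 (SE 0.19, adjusted p = 0.0198), and the difference in non-β-cells was 0.54 (SE 0.20, adjusted p = 0.0931). Without 4-week β-cell sample 3 the difference in β-cells was 0.53 (adjusted p = 0.060) and without 8-week β-cell sample 3 it was 0.63 (adjusted p = 0.0846). Conversely, the non-β-cell difference passed the threshold without 4-week β-cell sample 3, at 0.55 (adjusted p = 0.0456), a sample that enters that comparison only through the shared estimate of the spread.

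Adar (ENSMUSG00000027951, chr3:89715022-89753446, plus strand), the editing enzyme, had the highest level per exon length of the 9 genes in all 4 groups. β-cells had 74.3, 69.2 and 51.5 CPM at 4 weeks and 96.9, 97.0 and 89.1 CPM at 8 weeks. Non-β-cells had 101, 114 and 90.7 CPM at 4 weeks and 117, 105 and 110 CPM at 8 weeks, where the ages overlapped. With age the level rose in β-cells by 0.55 (SE 0.13, adjusted p = 0.0132), while the difference in non-β-cells was 0.12 (SE 0.13, 95% interval -0.16 to 0.41). The β-cell call sat at the threshold without 8-week β-cell sample 1 (0.53, adjusted p = 0.0509) or sample 2 (0.54, adjusted p = 0.0505). At 4 weeks Adar was the lower in β-cells, by -0.66 (SE 0.13, adjusted p = 0.00147), and at 8 weeks the difference was -0.23 (SE 0.13, adjusted p = 0.170). Part of Adar overlaps exons of Chrnb2 on the opposite strand, which was itself abundant, with group means of 83.3 and 89.8 CPM in β-cells at 4 and 8 weeks and 61.2 and 46.9 CPM in non-β-cells. How far the counting kept the strands apart is not stated in the sources used here, and its part in the values of Adar was not tested.

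Zbp1 (ENSMUSG00000027514, chr2:173206612-173218923, minus strand) was close to absent at 4 weeks and present in every sample at 8 weeks. In β-cells the 4-week samples held 0, 1 and 4 counts and the 8-week samples 74, 71 and 65 counts, or 3.42, 2.68 and 2.61 CPM. In non-β-cells the 4-week samples held 3, 12 and 12 counts and the 8-week samples 231, 91 and 181 counts, or 10.0, 6.80 and 9.30 CPM. Summed over samples the 8-week level was 38.3 times the 4-week level in β-cells (95% exact interval 16.2 to 119) and 22.3 times in non-β-cells (15.1 to 34.1), counting error only. By limma-voom the log2 difference was 5.38 (SE 1.12, adjusted p = 0.00557) in β-cells, the 18th largest of 15598, and 4.69 (SE 0.64, adjusted p = 0.00022) in non-β-cells, the 147th largest. Between the fractions Zbp1 was lower in β-cells at 8 weeks, by -1.63 (SE 0.27, adjusted p = 0.000299). At 4 weeks the difference of -2.33 (SE 1.26) rested on 5 against 27 counts and was not called by limma-voom (adjusted p = 0.144), whereas it was called by edgeR (adjusted p = 0.0246) and DESeq2 (adjusted p = 0.00648), and by limma-voom without 4-week non-β-cell sample 1 (-3.16, adjusted p = 0.0403).

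Tmem173 (ENSMUSG00000024349), the gene of STING, was found mainly in non-β-cells of the older mice. Its levels there were 0.880, 0.196 and 1.68 CPM at 4 weeks and 12.2, 10.9 and 12.7 CPM at 8 weeks. The β-cell samples held 1, 1 and 4 counts at 4 weeks and 17, 13 and 16 counts at 8 weeks, which is 0.490 to 0.786 CPM. In non-β-cells the difference with age was 4.09 (SE 0.51, adjusted p = 0.000113), or 674 against 61 counts, a ratio of 13.2 (95% exact interval 10.2 to 17.5, counting error only). In β-cells 46 against 6 counts gave a ratio of 6.99 (2.98 to 20.0), and the log2 difference of 2.72 (SE 1.12) was not called by limma-voom (adjusted p = 0.115). It was called by edgeR (adjusted p = 0.0245), by DESeq2 (adjusted p = 0.00433) and by limma-voom without 4-week non-β-cell sample 2 (2.70, adjusted p = 0.0456). β-cells were lower than non-β-cells at 8 weeks by -4.23 (SE 0.51, adjusted p = 1.74e-05). At 4 weeks the difference of -2.87 (SE 1.12) was just under the threshold (adjusted p = 0.0495). The call was lost when any sample other than non-β-cell sample 2 at 4 weeks was left out, with adjusted p-values from 0.060 to 0.154. It was also lost with scaling by total counts (0.0504), with hormone and mitochondrial genes removed (0.0542) and with only the groups compared (0.126).

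Markers of vessels and connective tissue moved with Tmem173. All 9 endothelial markers were higher at 8 weeks in the non-β-cell fraction, where their summed level went from 43.7 to 90.7 CPM at 4 weeks up to 392 to 1100 CPM at 8 weeks, and in β-cells none of the 9 was called and the sum stayed between 3.21 and 11.1 CPM. All 10 mesenchymal markers were higher as well, from 112 to 314 CPM at 4 weeks up to 719 to 1110 CPM in non-β-cells, with 1 of 10 called in β-cells, from 4.40 to 16.2 CPM up to 26.9 to 55.4 CPM. In non-β-cells at 4 weeks the lowest sample of the mesenchymal marker Pdgfra was at 0 CPM, and no other endothelial or mesenchymal marker was at 0 in a non-β-cell sample. The part of these cells in the values of Tmem173, and in those of the other sensors in non-β-cells, was not tested. Of 18 leukocyte markers only Cd68 and Cd79a passed the filter. The leukocyte sum was 52.5 to 53.6 CPM at 4 weeks and 70.5 to 78.0 CPM at 8 weeks in β-cells and 10.3 to 13.7 CPM and 16.4 to 21.9 CPM in non-β-cells, most of it from Cd68, a lysosomal membrane protein, with 3254 and 5090 counts in β-cells at 4 and 8 weeks and 611 and 897 counts in the other fraction. Ptprc, which encodes CD45, summed to 1 and 0 counts in the β-cells and to 31 and 3 counts in the non-β-cells at 4 and 8 weeks, and Fcgr1 and Clec9a were at 0 in all samples. In β-cells 5 of 7 acinar markers were called higher at 8 weeks, with sums of 90.1 to 191 CPM and 439 to 914 CPM, and in non-β-cells 3 of 7, with 34.2 to 89.1 CPM and 197 to 784 CPM. Of 6 duct markers 2 were called higher in β-cells, where the sum went from 833 to 1170 CPM up to 1650 to 1780 CPM. In non-β-cells 5 were called higher, from 581 to 777 CPM up to 1950 to 2170 CPM. The β-cell sum came mostly from Krt7 and Spp1. Its rise lay in Spp1, with means of 99.2 and 943 CPM, while Krt7 had 857 and 740 CPM and was not called. The other called gene, Muc1, had 3.87 and 8.41 CPM. Krt7 stood at 260 CPM in 4-week non-β-cells, so the duct sum need not follow the share of duct cells. The part of acinar and duct RNA in the sensor values was not tested either.

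**Figure D2:**
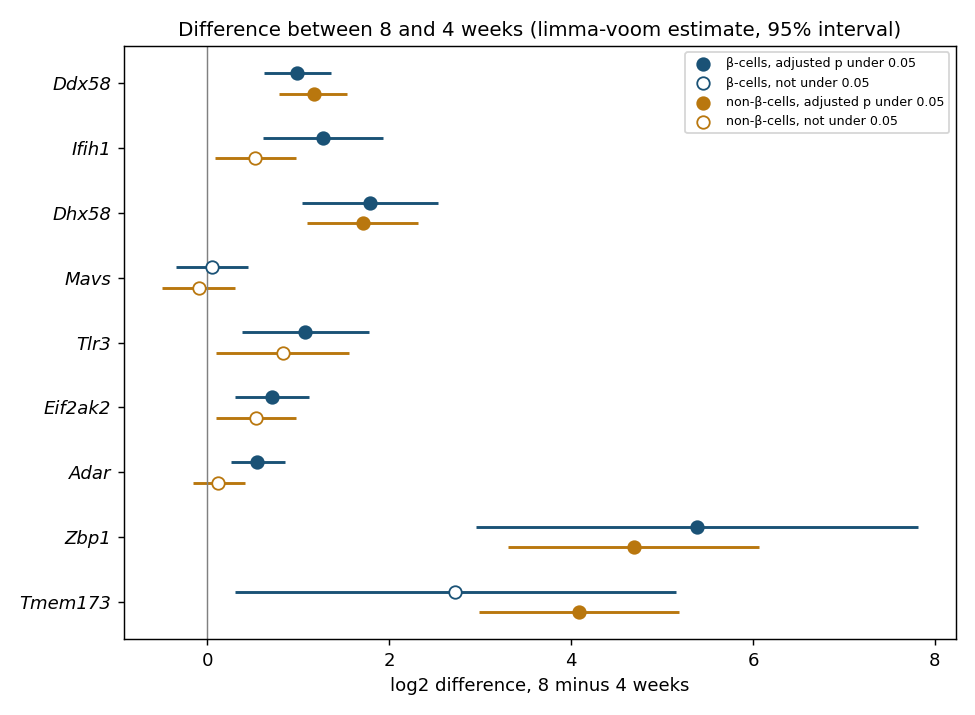
log2 difference between 8 and 4 weeks (horizontal axis) of each gene (vertical axis) in β-cells and non-β-cells, as limma-voom estimates with 95% intervals; filled points had an adjusted p under 0.05. The estimates of Ddx58 (0.99 and 1.17) and Dhx58 (1.79 and 1.71) lie close together in the fractions, and those of Zbp1 and Tmem173 carry the widest intervals.

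Whether age acted differently in the fractions was tested by the interaction, the β-cell age difference less the non-β-cell age difference. By limma-voom 0 of the 9 genes passed the threshold, where 5.13% of all tested genes did, and edgeR and DESeq2 also called 0 of 9. Unadjusted, limma-voom gave 1 gene under 0.05, which was Adar. Its interaction was 0.43 (SE 0.19, adjusted p = 0.235). Ifih1 had 0.74 (95% interval -0.05 to 1.54, adjusted p = 0.298). Ifih1, Tlr3, Eif2ak2 and Adar thus passed the age threshold in β-cells and not in non-β-cells, without a difference between the fractions that passed it. The intervals of Ddx58 (-0.70 to 0.35), Eif2ak2 (-0.43 to 0.77) and Dhx58 (-0.89 to 1.05) leave room for differences of moderate size, and those of Zbp1 (-2.09 to 3.49) and Tmem173 (-4.02 to 1.30) for large ones. With the replicate number as a block, Ifih1 (0.81, adjusted p = 0.0194) and Adar (0.43, adjusted p = 0.0413) passed the threshold. The block also raised the number of all tested genes called for the interaction, from 800 to 2080 of 15598.

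Between the fractions, 3 of the 9 genes were lower in β-cells at 4 weeks, Ifih1, Adar and Tmem173, where 23.7% of all tested genes were lower, and 4 of 9 at 8 weeks, Ifih1, Dhx58, Zbp1 and Tmem173, where 25.6% were lower. No member was called higher in β-cells at either age. These shares, 3 and 4 of 9, are read against backgrounds that are themselves large. Tmem173 was over the filter on low values in 0 β-cell samples at either age and in 1 and 3 non-β-cell samples at 4 and 8 weeks. Its being tested thus rested on the non-β-cells, and its calls here are not independent of the filter. Without both 4-week samples numbered 3, the counts were 2 and 5, as Tmem173 dropped out at 4 weeks (-2.82, adjusted p = 0.0985) and Adar was added at 8 weeks (-0.23, adjusted p = 0.0221), as it was with the replicate block (-0.23, adjusted p = 0.038). Without that pair of samples, 7706 and 9233 of 15431 tested genes were called in either direction at 4 and 8 weeks. At 8 weeks Eif2ak2 leaned the other way, at 0.34 (SE 0.19, adjusted p = 0.154), and was called higher in β-cells without 8-week non-β-cell sample 1 (0.56, adjusted p = 0.0353).

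**Figure D3:**
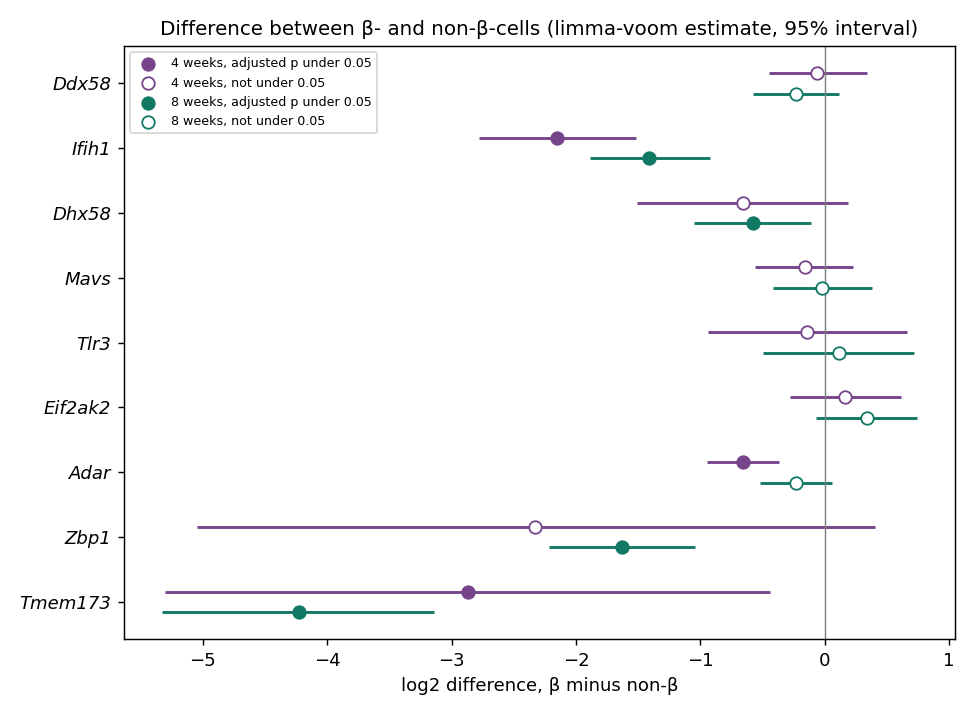
log2 difference of β-cells minus non-β-cells (horizontal axis) for each gene (vertical axis) at 4 and 8 weeks, as limma-voom estimates with 95% intervals; filled points had an adjusted p under 0.05. Ifih1 lies at -2.15 and -1.41 and Tmem173 at -2.87 and -4.23, while the intervals of Ddx58, Mavs, Tlr3 and Eif2ak2 include 0 at both ages.

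Levels of different genes can be compared only per length, and were divided by the exon length of the gene for this purpose. In β-cells at 4 weeks Adar (8.01 CPM per kb) and Mavs (7.02) led with overlapping samples, followed by Eif2ak2 (3.70) and Ddx58 (3.20), which overlapped as well. Ifih1 (0.818) and Tlr3 (0.805) came next and did not differ beyond their spread, Dhx58 stood at 0.475, and Tmem173 (0.0333) and Zbp1 (0.0211) closed the order. At 8 weeks Adar led alone at 11.6 CPM per kb, and Mavs (7.32), Ddx58 (6.31) and Eif2ak2 (5.95) overlapped each with the next. Ifih1 (2.07), Dhx58 (1.67) and Tlr3 (1.67) again overlapped, above Zbp1 (0.822) and Tmem173 (0.233).

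The order in non-β-cells differed mainly through Ifih1 and Tmem173. At 4 weeks Adar (12.5 CPM per kb) and Mavs (8.01) were followed by Ifih1 (3.63), Ddx58 (3.36) and Eif2ak2 (3.24), which overlapped each with the next. Tlr3 (0.887) and Dhx58 (0.770) overlapped, as did Tmem173 (0.335) and Zbp1 (0.122). At 8 weeks Adar stood at 13.6, Mavs at 7.47 and Ddx58 at 7.40, the latter pair overlapping, and Ifih1 (5.19), Eif2ak2 (4.70) and Tmem173 (4.35) overlapped each with the next. Dhx58 (2.67), Zbp1 (2.46) and Tlr3 (1.53) came last, again each overlapping with the next. The adaptor STING thus moved from the 8th place to the 6th in non-β-cells, and was 9th in β-cells at 8 weeks. With the longest transcript in place of all exons, Ddx58 changed places with Eif2ak2 in β-cells at 4 weeks, with Mavs in both fractions at 8 weeks and with Ifih1 in non-β-cells at 4 weeks.

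**Figure D4:**
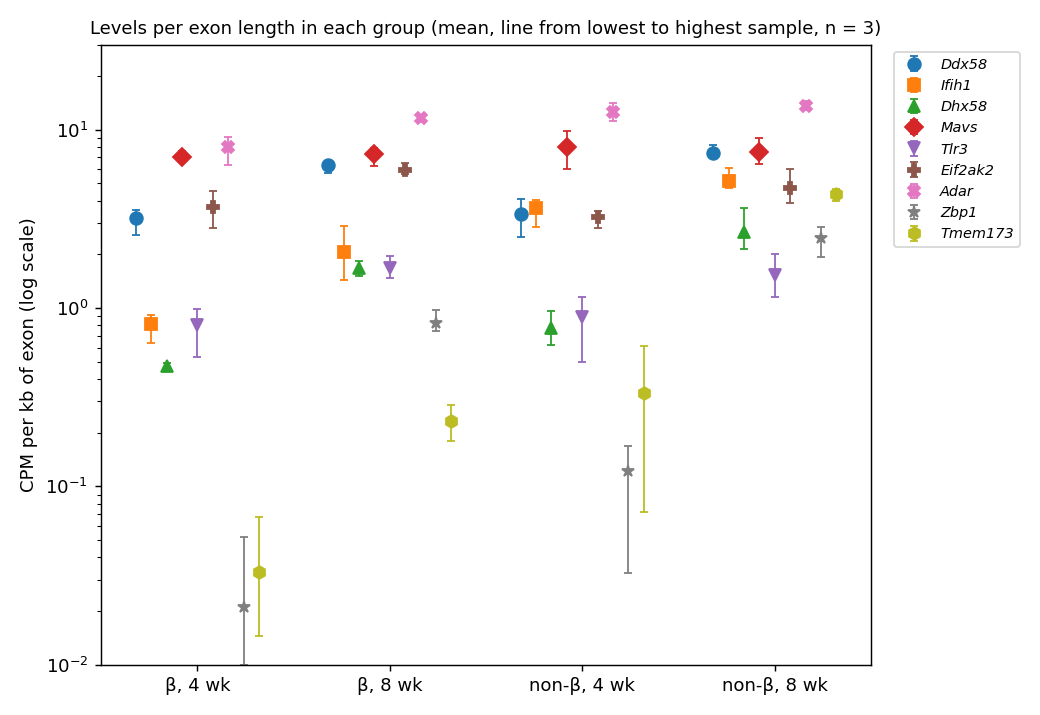
CPM per kb of exon (logarithmic vertical axis) of the 9 genes in the 4 groups, with symbols at the mean of 3 samples and lines from the lowest to the highest sample; the lowest Zbp1 sample of β-cells at 4 weeks is at 0 and lies below the axis. Adar is highest in all 4 groups, and Zbp1 and Tmem173 move up between 4 and 8 weeks.

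The genes whose levels ran most like those of each sensor over the 12 samples were looked up by Pearson's r of log2 CPM. These values describe 12 points that fall into 4 groups and share their libraries, and they carry no test. For Ddx58 they were Oas2 (r = 0.981), Cfb (0.963) and Serpina3e-ps (0.955); Oas2, an interferon-induced oligoadenylate synthetase, went from 0.646 to 4.74 CPM in β-cells and from 0.472 to 6.53 CPM in non-β-cells between the ages. For Dhx58 they were Plekha2 (0.970), Lrg1 (0.964) and Irgm2 (0.964), an interferon-induced GTPase, for Zbp1 Lrg1 (0.985), Lgals9 (0.976) and Rinl (0.969), and for Tlr3 Gbp11 (0.960), Ttll13 (0.949) and Dtx3l (0.938). Lrg1 had mean levels of 0.0628 and 12.1 CPM in β-cells and 1.00 and 75.2 CPM in non-β-cells at 4 and 8 weeks. Tmem173 ran with Procr (0.991), the endothelial protein C receptor, Ankrd1 (0.985) and Jam2 (0.984), a junction protein of endothelium. Ifih1 ran with Atat1 (0.986), Lrrk2 (0.986) and Airn (0.983), Adar with Slc4a8 (0.989), Nisch (0.983) and Rimbp2 (0.979), and Eif2ak2 with Slc23a2 (0.960), Cerkl (0.951) and Pdlim5 (0.944). The highest value for Mavs, with Gm15541, was 0.871.

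Around the sensors, 102 further genes of the pathway were listed by role, and 85 of them were tested. In β-cells 16 of the 85 were higher and 9 lower at 8 weeks, with a median log2 difference of 0.10 (0.02 over all tested genes), where 8.59% of all tested genes were called higher and 9.35% lower. In non-β-cells 16 were higher and 1 lower, with a median of 0.15 (0.01 over all), where 11.6% of all were called higher and 4.8% lower.

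Among 15 cofactors of the RIG-I-like receptors, 2 were higher in β-cells, and 2 were higher and 1 lower in non-β-cells. The helicase gene Ddx60 rose in both, from 3.00 to 9.69 CPM in β-cells (1.67, SE 0.26, adjusted p = 0.000911) and from 2.60 to 8.07 CPM in non-β-cells (1.61, SE 0.29, adjusted p = 0.00179). Dhx9, an RNA helicase that unwinds duplexes, rose in β-cells from 88.4 to 158 CPM (0.86, adjusted p = 0.000988) and stood at 149 and 170 CPM in non-β-cells (0.19, adjusted p = 0.407). Rnf125, a ubiquitin ligase that acts on RIG-I, rose in non-β-cells from 0.561 to 3.98 CPM (3.04, adjusted p = 0.00413), a call that edgeR did not make (adjusted p = 0.085), and it passed the filter on low values only through the 8-week non-β-cell samples, as Ifi203 and Cgas did among the DNA sensing genes. Zcchc3 fell there by 0.55 (adjusted p = 0.0168), with an adjusted p of 0.0531, 0.0503 and 0.0634 without the 8-week non-β-cell samples 1, 2 and 3.

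Below the receptors, 3 of 17 tested kinases, adaptors and transcription factors were higher and 2 lower in β-cells, and 2 higher and none lower in non-β-cells. Ikbke, the inducible kinase that phosphorylates IRF3 and IRF7, rose by 1.34 (adjusted p = 0.000368) in β-cells and 0.92 (adjusted p = 0.00232) in non-β-cells. Irf7, the interferon-inducible transcription factor, went from 3.45 to 9.64 CPM in β-cells (1.45, adjusted p = 0.0136, or 0.0699 without 4-week β-cell sample 2) and from 9.76 to 29.6 CPM in non-β-cells (1.63, adjusted p = 0.000316). Ticam1, the adaptor TRIF through which TLR3 signals, went the other way in β-cells, from 49.8 to 30.6 CPM (-0.70, adjusted p = 0.000931), and was at 36.4 and 35.4 CPM in non-β-cells. Ikbkb rose in β-cells by 0.49 (adjusted p = 0.0146), with 0.0577 and 0.0593 without 8-week β-cell samples 1 and 3. The constitutive pair Tbk1 and Irf3, named here after their values were seen, had log2 differences of -0.05 and -0.14 in β-cells and 0.00 and -0.06 in non-β-cells.

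Of 10 listed endosomal receptors and helpers, 6 were tested and 2 were higher in each fraction. Unc93b1, the chaperone that carries TLR3 to endosomes, rose by 0.60 (adjusted p = 0.00399) in β-cells and 0.84 (adjusted p = 0.000256) in non-β-cells. Myd88 rose in non-β-cells by 0.59 (adjusted p = 0.00351). Irak4 rose in β-cells by 0.83 (adjusted p = 0.0296), a call lost without any of the 6 β-cell samples, with adjusted p-values from 0.0617 to 0.0888. Tlr7, Tlr8 and Tlr9 were at 0 counts in all 12 samples, where 3 counts, the limit that a count of 0 allows, correspond to 0.113 to 0.224 CPM.

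Of 10 listed genes of cytosolic DNA sensing, 8 were tested. None was called in β-cells by limma-voom, and 1 was called in non-β-cells, Ifi203 at 0.409 and 1.95 CPM (2.98, adjusted p = 0.0184), with an adjusted p of 0.0772 and 0.0598 without 4-week non-β-cell samples 1 and 2. Its call was also lost by edgeR (adjusted p = 0.0961), with only the groups compared (0.0776) and with the replicate block (0.0669). Cgas, the enzyme upstream of STING, named here after its values were seen, had 0.218 and 0.229 CPM in β-cells and 0.730 and 1.59 CPM in non-β-cells at 4 and 8 weeks, and its differences of -0.04 and 1.01 were not called (adjusted p = 0.982 and 0.207).

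Of 14 nucleases and RNA modifiers that limit self nucleic acid, 3 rose in the β-cells and 2 in the non-β-cells. In β-cells Pnpt1, a mitochondrial RNA-degrading enzyme, rose by 0.53 (adjusted p = 0.00696) and Samhd1, which hydrolyses nucleotides, by 0.52 (adjusted p = 0.00909). In non-β-cells Trex1, the cytosolic DNA exonuclease, rose by 0.95 (adjusted p = 0.0127, or 0.0739 without 4-week sample 1) and Enpp1, which degrades the messenger of cGAS, by 0.81 (adjusted p = 0.0141, with 0.0528, 0.0642 and 0.0574 without 4-week samples 1 and 2 and 8-week sample 1).

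Most of the genes listed around PKR were lower in β-cells at 8 weeks, unlike Eif2ak2 itself. Of 12 partners and members of the integrated stress response, 7 were lower and 1 higher, with a median of -0.46, while in non-β-cells 1 was higher and none lower, with a median of -0.09. Ppp1r15b, a phosphatase subunit that reverses the action of PKR on its substrate, fell from 176 to 88.6 CPM (-0.99, adjusted p = 0.000159), Ddit3, the transcription factor CHOP, from 548 to 270 CPM (-0.98, adjusted p = 0.00185), and Eif2ak3, the related kinase PERK, from 131 to 65.9 CPM (-0.97, adjusted p = 0.000165). Ppp1r15a, the stress-induced phosphatase subunit, fell in β-cells from 705 to 400 CPM (-0.81, adjusted p = 0.00096) and rose in non-β-cells from 750 to 1420 CPM (0.91, adjusted p = 0.000305). The gene that rose in β-cells was Dnajc3, the PKR inhibitor p58IPK, from 160 to 236 CPM (0.56, adjusted p = 0.000919), named here after its values were seen.

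Among the 4 partners of ZBP1 in necroptosis, 2 rose in the β-cells and 3 in the non-β-cells. Mlkl, the executioner of necroptosis, rose from 2.23 to 5.88 CPM in β-cells (1.47, adjusted p = 0.0157) and from 5.65 to 12.0 CPM in non-β-cells (1.09, adjusted p = 0.00952); the β-cell call was lost without 4-week sample 2 (adjusted p = 0.0821) or 8-week sample 2 or 3 (adjusted p = 0.0504 for each). Ripk3, the kinase between ZBP1 and MLKL, stood at 0.172 and 0.392 CPM in β-cells (2.08, SE 1.19, adjusted p = 0.257) and rose from 1.48 to 7.02 CPM in non-β-cells (2.31, SE 0.41, adjusted p = 0.00159). Cflar, an inhibitor of caspase activation, rose in β-cells by 0.78 (adjusted p = 0.00245). Casp8 had a difference of 0.68 in β-cells, which was not called (adjusted p = 0.0712). It was called there without both 4-week samples numbered 3 (0.88, adjusted p = 0.0318), without the β-cell one alone (0.88, adjusted p = 0.0385) and with sample quality weights (0.94, adjusted p = 0.00347). It rose by 0.73 in the other fraction (adjusted p = 0.047), where its call was lost in 14 alternatives. Among these were the omissions of every sample except the 4-week β-cell samples 1 and 3 and the 8-week non-β-cell sample 2, with adjusted p-values up to 0.183.

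Interferons themselves were not detected. Of 16 listed interferons and receptors 6 were tested, all receptors, while Ifnb1, Ifna1, Ifna2, Ifna4, Ifna5, Ifne, Ifnl2, Ifnl3 and Ifng were at 0 counts in all 12 samples and Ifnk summed to 5 counts. At these depths a count of 0 allows up to 0.224 CPM in the shallowest sample, and counting error only is covered. Ifngr1 and Ifngr2, the subunits of the interferon-γ receptor, rose in non-β-cells by 0.54 (adjusted p = 0.00689) and 0.52 (adjusted p = 0.00596) and had -0.27 and -0.22 in β-cells (adjusted p = 0.124 and 0.181). Of the transcription factors below the type I interferon receptor, Stat2 rose in β-cells by 0.74 (adjusted p = 0.00674) and Irf9 by 0.35 (adjusted p = 0.0243), with 0.31 (adjusted p = 0.188) and 0.27 (adjusted p = 0.0702) in the other fraction. The β-cell call of Irf9 was lost without 4-week β-cell sample 1 or 2 or any 8-week β-cell sample, with adjusted p-values from 0.066 to 0.0903.

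**Figure D5:**
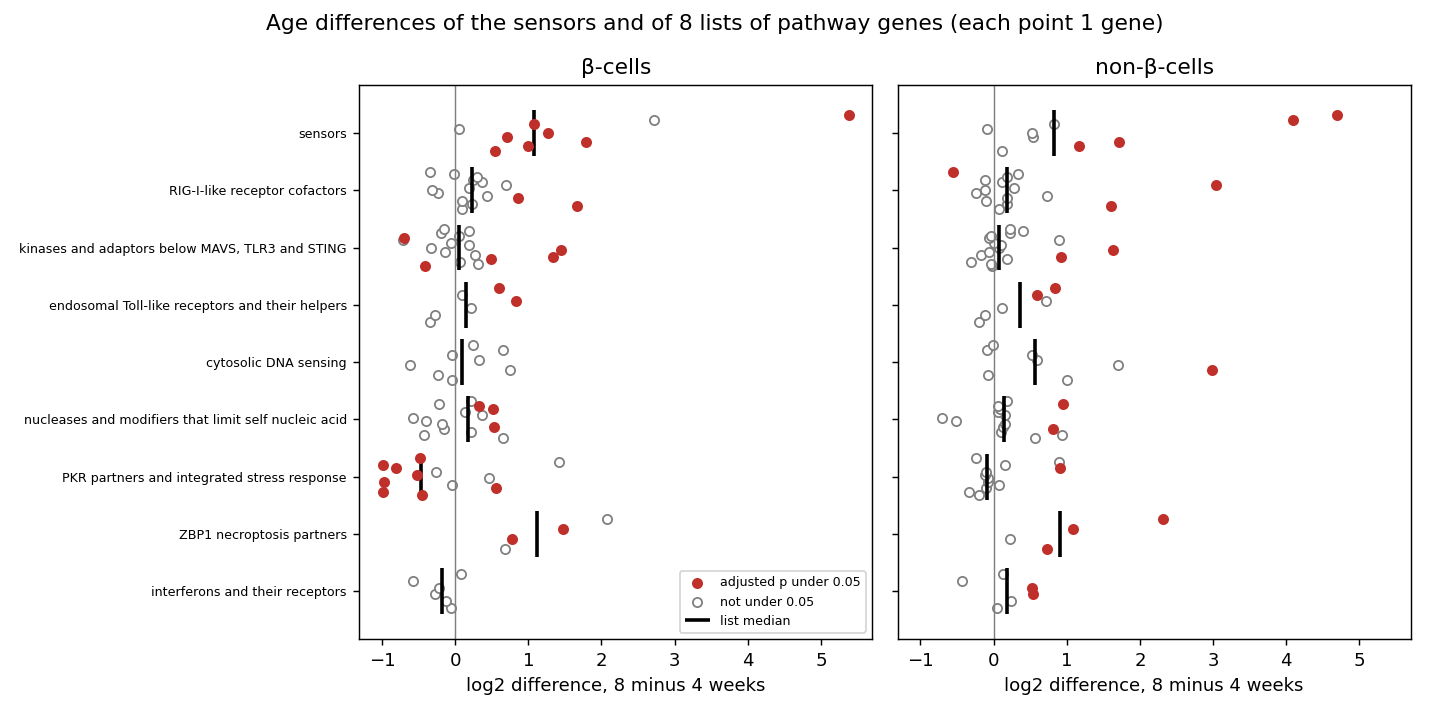
log2 difference between 8 and 4 weeks (horizontal axis) of the tested genes of the sensor list and of 8 pathway lists (rows), in β-cells on the left and non-β-cells on the right; red points had an adjusted p under 0.05 and black bars mark list medians. The median of the integrated stress response list lies at -0.46 on the left and -0.09 on the right, and that of the sensors at 1.08 and 0.83.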

How the data were processed

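RNA of autofluorescence-sorted islet cells was sequenced from stranded total RNA libraries. Per the study's methods and the submitters' processing notes, reads were trimmed with fastp, assigned to mouse transcripts of Ensembl release 98 on GRCm38 with kallisto and summed to genes with tximport, with versions not given in the sources used here. The authors deposited estimated counts per gene, unscaled and unfiltered, of which 14.0 to 19.3% per sample were not whole. These counts were rounded here. Genes with a CPM above 1 in at least 3 of 12 samples were kept, scaled by TMM in edgeR 4.0.16 and compared two-sided by limma-voom in limma 3.58.1 under R 4.3.3, in a model of 4 group means, as in the study. The main alternatives were DESeq2 1.42.0, the quasi-likelihood test of edgeR, other scalings and filters, sample weights, a replicate block and the omission of samples. Symbols and coordinates came from GENCODE M21, which named 51916 of 52962 identifiers. The model was tested on simulated counts.

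All 9 sensors and, from each pathway list, up to 4 genes with the largest called age difference and up to 3 with the largest called interaction are named, together with the 3 genes most like each sensor. The sensors and the lists were chosen with earlier results of these data known. Kallisto can divide reads among similar genes, and whether strand was used in the assignment is not stated. Ratios of summed counts have exact intervals that cover counting error only. Some listed genes are not reported here.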

Additional observations from a re-analysis of the deposited data

Results flagged for a closer look

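None of the 9 sensors met a rule for closer inspection. Among the genes named by rule from the surrounding lists, 6 did, because their age differences differed between the fractions by the interaction test of limma-voom. Of all 85 tested list genes, 1 was called upward and 6 downward for the interaction, where 5.13% of all tested genes were called. These counts are given as a description of single genes. Ppp1r15a had an interaction of -1.73 (SE 0.18, adjusted p = 0.000153), with group means that went down in β-cells and up in non-β-cells. Ppp1r15b had -1.14 (SE 0.17, adjusted p = 0.00215) and Eif2ak3 -0.90 (SE 0.17, adjusted p = 0.00807), and both passed the age threshold, downward, in β-cells. In the same list Dnajc3, added here after its values were seen, had 0.68 (SE 0.13, adjusted p = 0.00706). For the receptor subunits the values were -0.80 for Ifngr1 (SE 0.16, adjusted p = 0.0123) and -0.73 for Ifngr2 (SE 0.15, adjusted p = 0.0149). Ticam1, the adaptor of TLR3, had -0.64 (SE 0.16, adjusted p = 0.0364), which did not pass the threshold in 10 of the alternatives, with adjusted p-values of 0.0525 to 0.105.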

How the results depend on the processing

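Of 1026 differences of the sensors under alternatives, 949 kept their direction and their side of the threshold, 37 lost the call, 16 gained one and 24 changed sign. With a 2-fold change required, 4 sensors remained called in β-cells with age. The share of all tested genes under that requirement was not counted. Leaving out 1 sample at a time gave 5 to 8 sensors with age in β-cells, 4 to 5 in non-β-cells, 2 to 3 between the fractions at 4 weeks, 3 to 5 at 8 weeks and 0 for the interaction. The genes called moved as well, among 15281 to 15536 tested. They numbered 1695 to 3128 with age in β-cells and 1810 to 3195 in non-β-cells. Between the fractions they numbered 6485 to 7808 at 4 weeks and 6214 to 8478 at 8 weeks, and for the interaction 455 to 979. Without a filter on low counts the median of all genes moved to 0.21 for age in non-β-cells and to -0.23 between the fractions at 8 weeks, and the other scalings moved it by under 0.1.

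Whether equal replicate numbers marked pairs depended on the genes used for the check. The correlations of same-numbered deviations over all tested genes were 0.08, 0.13 and 0.31 at 4 weeks between the fractions and from -0.01 to 0.12 in the other comparisons. Among genes with a mean log2 CPM of at least 3 they were 0.29, 0.43 and 0.67 at 4 weeks and from -0.07 to 0.35 in the other comparisons. At 4 weeks the block changed no call of a sensor. The block gave 7, 5, 3 and 5 sensors in the 4 comparisons and 2 for the interaction. Among all 15598 tested genes it called 2569 and 2642 with age in β-cells and non-β-cells, in either direction. Between the fractions it called 9158 and 9127 at 4 and 8 weeks, and 2080 for the interaction.

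None of the values that changed sign passed the threshold, and the cause was not tested. With sample quality weights they were Rnf125 in β-cells with age (-0.35, also -0.02 by edgeR and -0.05 by DESeq2), Ticam1 (0.02) and Ppp1r15b (-0.03) in non-β-cells with age, Ddx58 between the fractions at 4 weeks (0.07) and the interaction of Dhx58 (-0.03). Without both 4-week samples numbered 3 they were Ddx58 (0.24) and Tlr3 (0.23) between the fractions at 4 weeks and the interaction of Tlr3 (-0.12). Leaving out 1 sample gave ranges across 0 for Mavs with age (-0.01 to 0.14 in β-cells, -0.27 to 0.02 in non-β-cells), Enpp1 in β-cells (-0.34 to 0.02), and Ticam1 (-0.13 to 0.01) and Eif2ak3 (-0.17 to 0) in non-β-cells. Between the fractions the ranges were -0.24 to 0.09 for Ddx58 and -0.48 to 0.15 for Tlr3 at 4 weeks, and -0.14 to 0.12 for Mavs and -0.11 to 0.38 for Tlr3 at 8 weeks. For the interaction they were -0.33 to 0.02 for Ddx58, -0.06 to 0.25 for Dhx58, -0.02 to 0.61 for Tlr3 and -0.02 to 0.39 for Eif2ak2.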
